A study of Mus musculus with 14 samples.

Results

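The probes described here are those that the larger of the study's 2 Agilent mouse array designs names by a genomic interval in place of a transcript accession. They were chosen by that name alone: control spots were left out, the interval had to start with a chromosome, and intervals on chromosomes X and Y were set aside. This gave 15617 of the 55681 probes of the design, beside 39487 probes with an accession or other name and 577 interval probes that were left out. The 15617 probes query 3390 intervals on the 19 autosomes, with coordinates on the mouse build mm9 per the file headers.

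All mice were C57BL/6, and each group has 2 arrays of 1 RNA sample each. Granulocyte-monocyte progenitors (GMP) came from bone marrow of wild-type mice and of mice of the genotype IRF8KO, both sorted as CD117+ and CD16/32+ cells without lineage markers (Lin), IL-7R, Sca-1 or CD115. Common dendritic cell progenitors (CDP) were wild-type marrow cells sorted by the same negative markers except CD115, as CD115+, CD135+ and CD117int. Precursors of classical dendritic cells (pre-cDC) were wild-type marrow cells sorted as Lin- CD11c+ MHC-II- CD135+ CD172a+. CD8+ classical dendritic cells (cDC) were wild-type splenic cells sorted as CD11c+ MHC-II+ CD4- CD8+, and neutrophils (Neu) were wild-type marrow cells sorted as CD11b+ Ly6Ghi. The labels give no ages, do not say how the IRF8KO allele was made, and do not say whether the samples of a group came from separate mice, so a p-value here covers the spread between 2 samples a group, which may be technical. The 6 comparisons follow the labels from GMP through CDP and pre-cDC to CD8+ cDC, from GMP to neutrophils, between both mature cells, and between the GMP genotypes. Several of them share arrays: the wild-type GMP arrays, for example, enter 3.

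Long intergenic non-coding RNAs are transcripts from stretches of the genome between protein-coding genes. They are spliced and polyadenylated like messenger RNA, usually scarce, and often far more restricted to a cell type than messenger RNA is. Arrays of this kind carry probes for regions where such transcripts were proposed, on 1 strand or on both. In blood cell development a few are known to act in neutrophil lifespan or dendritic cell differentiation, while most have no assigned role. IRF8, the factor missing by label from the IRF8KO mice, is needed for monocyte and dendritic cell development and restrains the neutrophil path. Whether each of the 3390 intervals lies outside genes was not checked, because no mm9 annotation was used here, so intervals are given by position only and no role is assigned to them.

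The intervals were 62 bases to 7.13 Mb long, with a median of 7.45 kb and quartiles of 0.794 kb and 21.8 kb. Probes lay on the forward strand in 7890 cases and on the reverse strand in 7714, and 13 probes in 3 intervals had no strand in their name. Of the intervals, 1189 were probed on the forward strand only, 1156 on the reverse strand only and 1042 on both. An interval strand carried 1 to 10 probes, with a median of 3. Many intervals are versions of each other: 2015 of them (59.4%) overlapped another, so neither probes nor intervals are independent measurements. Each of these probes has 1 spot per array.

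Values are log2 of the scanner's processed signal minus the array's 75th percentile, so that 0 is the level of the 75th percentile and a step of 1 is a factor of 2. Whether a probe was measurable is taken from the scanner's own mark that a spot is well above background. Replicate arrays of a group correlated at r = 0.984 to 0.991 over the interval probes detected on both. The median absolute difference between replicates was 0.11 to 0.20 on the log2 scale. The 75th percentile signal was 88.8 and 89.4 on the CDP arrays, 148 to 316 on the pre-cDC, CD8+ cDC and neutrophil arrays and 508 to 584 on the GMP arrays of both genotypes. The lowest level marked well above background on an array was -2.96 and -2.81 in pre-cDC, -3.06 and -2.94 in neutrophils and -2.98 and -3.35 in CDP, and between -4.59 and -3.50 on the other 6 arrays. Per the headers, both GMP genotypes lay on 1 slide and CD8+ cDC with neutrophils on another. In the other 4 comparisons slide and group cannot be told apart.

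Marker lists bore out some labels better than others. All 5 measured neutrophil markers (S100a8, S100a9, Camp, Ltf and Retnlg) were highest in neutrophils, and all 5 measured CD8+ cDC markers (Xcr1, Clec9a, Cd8a, Cadm1 and Batf3) were highest in CD8+ cDC. The GMP list (Elane, Mpo, Prtn3 and Ctsg) was well above background in every group except CD8+ cDC, where 2 of 4 were, and 3 of the 4 were highest on the arrays labelled IRF8KO. Of the CDP list (Csf1r, Flt3 and Cx3cr1) all 3 were well above background in CDP and 2 were highest there. The pre-cDC list (Itgax, Flt3 and Zbtb46) was well above background in pre-cDC, CDP and CD8+ cDC, and all 3 were highest in CD8+ cDC, so it does not set pre-cDC apart. The targeted gene, Irf8, read 4.61 and 4.69 on the wild-type GMP arrays and 6.03 and 5.99 on the arrays labelled IRF8KO. It was thus higher by 1.36 (SE 0.10) on the arrays labelled IRF8KO (limma adjusted p = 0.00021). Its 1 probe may lie outside the deleted part, so it does not check the label.

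Fewer interval probes than accession-named probes were detected on every array. Their share well above background was lowest on the CDP arrays, at 20.7% and 21.6%. Pre-cDC gave 25% and 22.6% and GMP 25.5% and 27%. It was 31.9% and 28.1% for neutrophils, 32.9% and 34.8% for CD8+ cDC, and 28.4% and 39.5% with the IRF8KO label. CD8+ cDC and CDP were the highest and lowest groups whose replicates lay close together, while the second IRF8KO array stood apart from the first. On that array the negative control spots had a median signal of 4.93, against 8.93 on the first IRF8KO array and 11.8 and 11.4 on the wild-type GMP arrays, and its higher detection was not limited to intervals. Among accession-named probes the shares were 47.0% to 59.4%. On none of the 12 arrays were 7445 interval probes (47.7%) detected, against 30.8% of accession-named probes. On all 12 arrays 2069 (13.2%) were detected, against 36.4%. A probe counts as detected in a group when both arrays mark it, and 5982 interval probes (38.3%) were detected in at least 1 group.

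**Figure D1:**
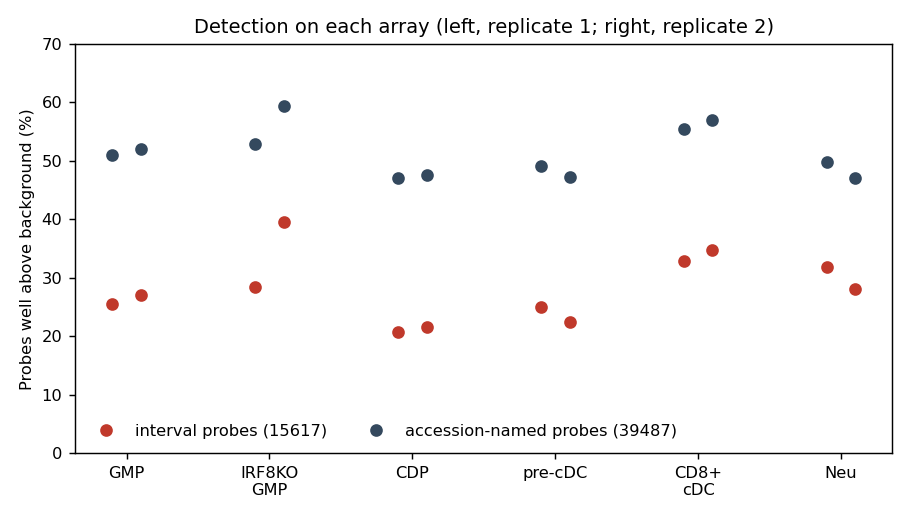
Percentage of probes marked well above background on each of the 12 arrays, for the 15617 interval probes and the 39487 accession-named probes, by group. Interval probes lie between 20.7% and 39.5%, below the accession-named probes on every array, and the second IRF8KO array lies above the first for both kinds.

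Detection differed more between chromosomes than by strand or length. It was 36.4% on the forward and 40.3% on the reverse strand. By length, the lowest share was 35.6%, among probes of the shortest intervals when these were split into 4 classes by length, and the highest was 40.4%, in the next class. By chromosome it ran from 29.6% on chromosome 9 to 45.7% on chromosome 19.

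Some interval probes were detected in 1 group and on no array of the other 5. Neutrophils had 206 of these, CD8+ cDC 152, the arrays labelled IRF8KO 47, GMP and pre-cDC 11 each and CDP 2. Of all interval probes detected in neutrophils, 4.91% were of this kind, against 1.89% of the accession-named probes detected there. In CD8+ cDC the shares were 3.1% and 2.7%, and with the IRF8KO label 1.10% and 0.615%. They were 0.338% and 0.192% in pre-cDC, 0.299% and 0.188% in GMP and 0.0682% and 0.0610% in CDP.

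Levels differed among the 6 groups for most measurable members. Of the 5982 interval probes detected in at least 1 group, 5545 (92.7%) differed by limma's F test at an adjusted p under 0.05, where 95.9% of all probes so tested did. Among the 2069 detected on all 12 arrays, the highest group was neutrophils for 1158 (56.0%), pre-cDC for 365, CD8+ cDC for 234, CDP for 178, GMP for 79 and the arrays labelled IRF8KO for 55. Among the 14384 accession-named probes detected on all 12 arrays, 37.7% were highest in neutrophils and 31.3% in CDP. The range of the 6 group means had a median of 2.01 over these interval probes, against 2.11 for the accession-named probes.

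The plot of single members shows the patterns that the next paragraphs describe.

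**Figure D2:**
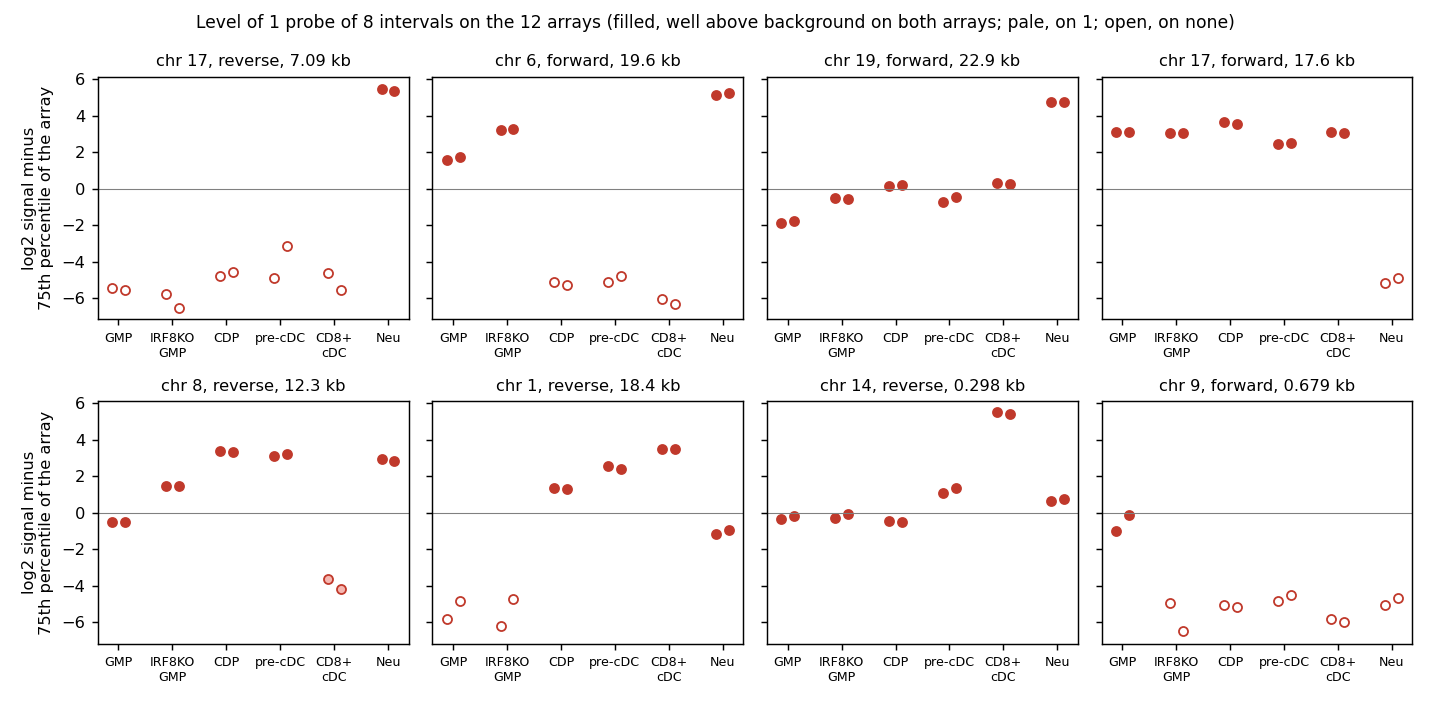
Level of 1 probe of each of 8 intervals on the 12 arrays, as log2 signal minus the array's 75th percentile. Filled points are groups well above background on both arrays, pale points on 1 array and open points on none, so open points are not measured levels. The upper row starts with a member filled in neutrophils alone and ends with one filled in every group except neutrophils, and the lower row ends with one filled in wild-type GMP alone.

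Neutrophils differed from GMP at most interval probes, and mostly upward. Of 5021 interval probes tested, those detected in GMP, neutrophils or both, 3376 were higher and 989 lower in neutrophils (limma, Benjamini-Hochberg adjusted p under 0.05), where 89.3% of all 27001 probes tested were called in either direction. Higher calls took up 67.2% of the interval probes tested against 51.2% of all probes tested, and lower calls made up 38.1% of all probes tested. A probe that entered through 1 group alone was likely to be brighter there, so counts are also given for the 2855 interval probes well above background on all 4 arrays. Of those, 2070 were higher and 346 lower, and their median difference was 1.27. Over all 18978 such probes the median was 0.60, and 88.2% were called, 54.8% higher and 33.4% lower. Higher calls outnumbered lower ones under each of the scalings and filters tried. The higher share of calls was 77.3% as first given. It ran from 69.4% with arrays scaled to their medians (2833 against 1251) to 85.7% among the probes well above background on all 4 arrays. After normexp background correction it was 85.5% (3826 against 651). In that order, the higher shares over all probes tested were 57.4%, 47.6%, 62.1% and 60.1%.

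One member detected in neutrophils alone lay on the reverse strand of chr17:56687541-56694631, 7.09 kb long. In neutrophils it read 5.48 and 5.33. On the other 10 arrays it was not well above background, so only a bound can be given: neutrophils were at least 593-fold higher than GMP and at least 312-fold higher than each of the other 5 groups. An at-least fold sets the mean of the brighter group against the lowest signal that still counts as well above background on the arrays of the dimmer group, or against the dimmer group's own signal on an array where that is higher. The forward strand of chr10:83980790-83986015 behaved likewise, at 3.07 and 3.04 in neutrophils, on no other array well above background, and at least 61.3-fold higher than any other group. On its reverse strand the same interval was detected on all 12 arrays, at 2.85 and 2.98 in neutrophils and between -3.81 and -1.38 elsewhere.

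An interval on chromosome 19, chr19:53517903-53540753, was high in neutrophils on both strands. Its leading forward probe read 4.75 on both neutrophil arrays and -1.88 and -1.76 in GMP, a difference of 6.57 (SE 0.11, limma adjusted p = 3.8e-09). On the arrays labelled IRF8KO it read -0.50 and -0.57 and on the pre-cDC arrays -0.74 and -0.46. Slightly above 0 were CDP, at 0.15 and 0.22, and CD8+ cDC, at 0.29 and 0.24. The neutrophil arrays thus stood far above the other 10, and GMP was the lowest group. All 10 tested reverse probes were higher in neutrophils than in GMP, by 4.30 to 5.99. All 10 were also lower in CD8+ cDC than in neutrophils, with differences from -5.57 to -5.10. At chr2:157361470-157379813 the reverse strand also had 10 probes that were all higher in neutrophils than in GMP, but by amounts from 1.71 to 5.98, and 7 of the 10 were well above background on no GMP array.

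A probe on the forward strand of chr1:64686823-64728598 had one of the largest rises from GMP to neutrophils among probes measured on all 4 arrays. It read -2.47 and -2.39 in GMP and 4.86 and 4.79 in neutrophils, a difference of 7.26 (SE 0.19, limma adjusted p = 1.4e-08). In CDP it was not well above background, and on the other 6 arrays it lay between -2.55 and -1.64. On the reverse strand, chr19:6268793-6276607 rose by 6.36 (SE 0.14, limma adjusted p = 7.9e-09), from -3.08 and -2.91 in GMP to 3.30 and 3.44 in neutrophils.

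A reverse probe of chr13:60508775-60534625 was high in neutrophils and intermediate in pre-cDC. It read 5.13 and 5.16 in neutrophils, 1.61 and 1.69 in pre-cDC, -1.45 and -1.43 in CD8+ cDC and -1.68 and -1.36 in CDP, and it was well above background on no wild-type GMP array. Neutrophils were at least 397-fold higher than wild-type GMP. The neutrophil marker genes were also present in pre-cDC: all 5 were well above background there, with a summed log2 level of 5.53 to 5.58, against 12.9 to 13.0 in neutrophils and -0.79 to -0.77 in CDP. The part of those transcripts in the pre-cDC values was not tested.

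Fewer members fell in neutrophils, but some did so steeply. On chr17:24152225-24169870 a forward probe read between 2.44 and 3.64 on all 10 other arrays, and was not well above background on either neutrophil array. It was at least 69.3-fold lower in neutrophils than in GMP. The same strand of chr5:137395007-137412976 had a probe that read 3.05 and 2.99 in GMP and 3.15 and 3.10 in CDP, then 1.23 and 1.18 in pre-cDC and 0.08 and 0.30 in CD8+ cDC, and was at least 64.1-fold lower in neutrophils than in GMP. A reverse probe of chr14:77006215-77063293 read 3.57 and 3.59 in GMP and -2.13 and -2.32 in neutrophils, so it fell by 5.81 on the log2 scale (SE 0.10, limma adjusted p = 3.9e-09). It lay between 2.66 and 3.88 in the other 4 groups. Forward probes of chr13:64018565-64082570 and chr12:16833551-16901804 fell by 4.86 and 4.81 on the log2 scale. Both were above 1 on every array outside the neutrophils and below -1 on both neutrophil arrays.

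Neutrophils also stood apart from CD8+ cDC, the other mature cell, and these 4 arrays shared a slide. Of 5464 interval probes tested, 1075 were higher and 2772 lower in CD8+ cDC, where 78.9% of all 28269 probes tested were called. Lower calls made up 50.7% of the interval probes tested against 43.1% of all probes tested, of which 35.9% were called higher. Among the 3644 well above background on all 4 arrays, 464 were higher and 2205 lower, with a median difference of -0.75 against -0.47 for all such probes, of which 80.1% were called, 29.8% higher and 50.3% lower. With only these 4 arrays in the fit, 1051 were higher and 2945 lower. That was 73.1% of the interval probes tested, against 77.1% of all probes tested. Lower calls outnumbered higher ones under every scaling tried. The higher share of calls moved from 27.9% to 40.4% when the percentile was taken over always-detected probes. It was 38.2% with array medians and 17.7% with normexp. In that order, the higher shares over all probes tested were 45.4%, 55.5%, 54.4% and 39.9%. Markers of other cells stand beside this comparison. All 3 B-cell markers were well above background in neutrophils, with a summed log2 level of 0.24 to 0.34, and 2 of 3 in CD8+ cDC, at 2.20 to 2.23. Of the 3 T-cell markers 2 were well above background in both, and summed to 4.11 to 4.13 in neutrophils. All 5 neutrophil markers were well above background in CD8+ cDC too, at 4.18 to 4.26. The red cell gene Hba-a1 was at 7.34 and 7.46 in CD8+ cDC and at 2.53 and 2.61 in neutrophils. Their part in the differences was not tested.

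A steep contrast between neutrophils and the dendritic lineage was at overlapping forward-strand intervals on chromosome 6. A probe of chr6:40699474-40719122 read 1.59 and 1.70 in GMP, 3.20 and 3.29 on the arrays labelled IRF8KO and 5.15 and 5.21 in neutrophils. It was well above background on no array of CDP, pre-cDC or CD8+ cDC. Neutrophils were at least 567-fold higher than CD8+ cDC, and CDP was at least 28.1-fold lower than GMP. The overlapping interval chr6:40693617-40720167 gave the same order with another probe, at 1.51 and 1.47 in GMP, 3.08 and 3.19 with the IRF8KO label and 5.12 and 5.23 in neutrophils. All 5 of its tested probes were lower in CDP than in GMP, with a median difference of -5.66, and none of them was well above background on a CDP array, so CDP enters here with signals that were not well above background.

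CD8+ cDC had members of their own. Of the 5084 interval probes tested between CD8+ cDC and pre-cDC, 1453 were higher and 1282 lower in CD8+ cDC, where 64.7% of all 27345 probes tested were called, 35.5% higher and 29.2% lower. Among the 3078 well above background on all 4 arrays, 756 were higher and 1068 lower, with a median of -0.18 against -0.03 for all such probes, of which 68.5% were called, 33.8% higher and 34.7% lower. The split has no settled direction: 53.1% of calls were higher, but 68% with array medians and 34% with normexp. Over all probes tested the higher shares were 54.9%, 68.8% and 48.9%. Tissue differs too, spleen against marrow, and cannot be told apart from cell type. Markers of other cells also moved: Hba-a1 read 1.83 and 1.88 in pre-cDC and 7.34 and 7.46 in CD8+ cDC, and the B-cell gene Ms4a1 was on no pre-cDC array well above background and read 2.17 and 2.14 in CD8+ cDC. Of the B-cell list 0 of 3 were well above background on both pre-cDC arrays. The neutrophil list summed to 5.53 to 5.58 in pre-cDC and 4.18 to 4.26 in CD8+ cDC, with all 5 well above background in both, and of the 3 basophil markers 2 were well above background in pre-cDC and 0 in CD8+ cDC. Their part in the differences was not tested.

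Among the largest rises was that of a forward probe of chr4:59306575-59317850. It read 2.27 and 2.52 in pre-cDC and 7.52 and 7.32 in CD8+ cDC, a difference of 5.03 (SE 0.16, limma adjusted p = 2.7e-07). Neutrophils followed at 3.83 and 3.48, and the other groups lay between 1.32 and 2.11. A short interval of 0.298 kb, the reverse strand of chr14:77042348-77042645, was at 5.51 and 5.42 in CD8+ cDC and at 1.07 and 1.35 in pre-cDC. Every other array was below 1. This interval lies inside chr14:77006215-77063293, whose probe on the same strand was at 2.87 on both CD8+ cDC arrays and between 2.66 and 2.76 in pre-cDC. Reverse strand chr4:101010948-101032148 was on no pre-cDC or CDP array well above background and was at 1.17 and 1.13 in CD8+ cDC, at least 16.4-fold higher than in pre-cDC. Neutrophils were alike, at 1.25 and 1.3.

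On chromosome 14, 9 tested reverse probes of chr14:33923944-34003394 were all higher in CD8+ cDC than in pre-cDC, by 0.99 to 4.46, and 4 of them were on no pre-cDC array well above background. The leading one read 0.65 and 0.67 in pre-cDC, 5.07 and 5.17 in CD8+ cDC and 2.60 and 2.58 in neutrophils. The forward strand of chr11:95627874-95640824 likewise had 9 probes that all rose, by 0.55 to 1.47, of which 2 were on no pre-cDC array well above background. A reverse probe of chr19:5798135-5800557 was high in both mature cells, at 6.90 and 6.79 in CD8+ cDC and 6.32 and 6.25 in neutrophils, against 1.88 to 3.34 elsewhere. Members detected in CD8+ cDC alone were led by the forward strand of chr5:31856417-31916414, at 1.12 and 0.86 and at least 13.3-fold over every other group, and by the reverse strand of chr6:31115515-31168433, at 1.09 and 0.57 and at least 11.7-fold. Near the second, the reverse strand of chr6:31078802-31079644 was at 3.09 and 3.07 in CD8+ cDC and at -2.45 and -2.35 in neutrophils, a difference of 5.48 (SE 0.11, limma adjusted p = 7.5e-09).

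Replicates disagreed at 1 member that the size rule picked. The reverse strand of chr14:78214602-78226287 read 4.16 on one CD8+ cDC array and -1.99 on the other, and was not detected in pre-cDC. CD8+ cDC were at least 15.7-fold higher by their mean. The difference of 4.57 had an SE of 1.6 (limma adjusted p = 0.037), and the call was lost with normexp (adjusted p = 0.054) and without either pre-cDC array (adjusted p = 0.090 and 0.12).

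On chromosome 8 reverse-strand probes were high in CDP and pre-cDC and low in CD8+ cDC. A probe of chr8:82836971-82849309 read -0.51 and -0.52 in GMP, 1.45 and 1.5 on the arrays labelled IRF8KO, 3.38 and 3.36 in CDP and 3.15 and 3.24 in pre-cDC. It then read -3.65 and -4.20 in CD8+ cDC and 2.95 and 2.86 in neutrophils. CDP exceeded GMP by 3.88 (SE 0.17, limma adjusted p = 1.4e-06). Another probe of this strand, detected on all 12 arrays, fell by 6.13 on the log2 scale from pre-cDC to CD8+ cDC (SE 0.11, limma adjusted p = 3.5e-08), and a further probe was at least 44.4-fold lower in CD8+ cDC. The neighbouring interval chr8:82854412-82919089, within 500 kb on the same strand, rose by 3.81 from GMP to CDP. It was detected on no array of CD8+ cDC and, unlike its neighbour, on no array of neutrophils.

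Other members were lower in CD8+ cDC too. Reverse strand chr8:129102060-129109035 read 1.31 and 1.17 in pre-cDC and -2.68 and -2.63 in CD8+ cDC, so it fell by 3.89 on the log2 scale (SE 0.09, limma adjusted p = 7.8e-08), and pre-cDC was its highest group. Forward strand chr1:139822286-139822985 fell by 3.61 on the log2 scale, to -2.07 and -1.88, and was on no neutrophil array well above background. On chr5:31856417-31916317 a forward probe read 1.39 and 1.25 in pre-cDC and 1.61 and 1.44 in neutrophils, and was at least 38.9-fold lower in CD8+ cDC. The interval differs only in its last bases from chr5:31856417-31916414, whose probe was detected in CD8+ cDC alone.

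From GMP to CDP calls went both ways. Of 3985 interval probes tested, 1303 were higher and 1235 lower in CDP, where 70.9% of all 24458 probes tested were called, 43.0% higher and 27.9% lower. Among the 2625 well above background on all 4 arrays, 1016 were higher and 587 lower, with a median of 0.22 against 0.31 for all such probes, of which 70.2% were called, 47.8% higher and 22.4% lower. The direction of the split moved with the scaling: the higher share of calls was 51.3%, but 81.9% with normexp and 28% when the percentile was taken over always-detected probes. Over all probes tested the higher shares were 60.6%, 64.9% and 35.9%. The scaling over always-detected probes moved the median difference of all tested probes from 0.19 to -0.30.

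Overlapping intervals on chromosome 1 rose from GMP to CDP. A reverse probe of chr1:175653557-175671940 was detected on no GMP array of either genotype. It read 1.36 and 1.33 in CDP and 2.56 and 2.40 in pre-cDC, and CD8+ cDC had the highest level, 3.51 and 3.49. CDP was at least 35.5-fold higher than GMP. Neutrophils had it at -1.15 and -0.92. Another probe of the same strand was detected in GMP, at -3.03 and -3.07, but on no neutrophil array, and CD8+ cDC, at 1.88 and 1.94, were at least 27.2-fold higher than neutrophils. One reverse probe of the overlapping chr1:175654606-175672031 was detected in every group, at -2.06 and -2.29 in GMP and 1.29 and 1.20 in CDP, a difference of 3.42 (SE 0.12, limma adjusted p = 5e-07). Unlike the first, it was as high in neutrophils, at 2.21 and 2.29, as in CD8+ cDC, at 2.30 and 2.41. A further interval of this stretch, chr1:175705225-175717250 on the same strand, was highest in CDP and pre-cDC, at 3.41 to 3.66, and fell by 3.79 on the log2 scale in CD8+ cDC.

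Forward strand chr8:48476637-48492537 was detected in every group and higher in CDP than in GMP by 3.13 (SE 0.13, limma adjusted p = 1.4e-06). It read 3.23 and 3.56 in GMP and 6.52 on both CDP arrays. Pre-cDC, at 7.91 and 7.83, and CD8+ cDC, at 8.66 and 8.44, were higher still, and neutrophils, at 6.37 and 6.47, were near CDP. The reverse strand of chr16:59556175-59603176 was detected on no GMP array of either genotype and was at least 16.9-fold higher in CDP, at 0.33 and 0.22. It stayed detected in pre-cDC, CD8+ cDC and neutrophils, between -0.98 and -0.41.

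Members lower in CDP than in GMP included the reverse strand of chr11:96111499-96126224. It read 1.92 and 1.91 in GMP, 1.64 and 1.61 on the arrays labelled IRF8KO, and -2.31 and -2.25 in CDP, so it fell by 4.19 on the log2 scale (SE 0.12, limma adjusted p = 2.7e-07). It lay between -1.70 and -0.90 in the later cells and neutrophils. At chr10:97196521-97207471 CDP alone was low: a forward probe read 2.37 and 2.31 in GMP, -1.01 and -0.94 in CDP and 1.72 and 1.69 in pre-cDC, and was above 2.7 on every array of CD8+ cDC and neutrophils. On the forward strand, chr14:44292637-44293014 read 2.21 and 2.22 in GMP, -1.19 and -1.26 in CDP and 0.84 and 1.08 in pre-cDC, but it was lower still in neutrophils, at -2.14 and -2.11. The same strand of chr1:63163019-63164281 fell by 3.26 on the log2 scale in CDP, from 0.99 and 1.05 to -2.0 and -2.48, and stayed below -1.7 in pre-cDC and CD8+ cDC.

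From CDP to pre-cDC more interval probes were higher than lower. Of 3688 tested, 1844 were higher and 927 lower in pre-cDC, where 77.2% of all 23232 probes tested were called, 30.7% higher and 46.5% lower. Among the 2496 well above background on all 4 arrays, 1166 were higher and 633 lower, with a median of 0.35 against -0.33 for all such probes, of which 76.4% were called, 26.7% higher and 49.7% lower. The split moved with the scaling: 66.5% of calls were higher, but 47% with array medians, 48.7% with normexp and 82% when the percentile was taken over always-detected probes. In each of these the higher share was larger for interval probes than for all probes, which gave 39.8%, 23.2%, 34.1% and 61.3%.

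The members with the largest rises were low in CDP. On chr5:35893909-35899497 a forward probe read 2.14 and 1.98 in GMP, -0.96 and -0.76 in CDP and 3.11 and 3.21 in pre-cDC. The rise from CDP was 4.02 (SE 0.12, limma adjusted p = 1.2e-06). The reverse strand of chr6:47687025-47728525 rose by 3.87 and the forward strand of chr6:67155508-67216941 by 3.55. One probe of the forward strand of chr14:67587065-67588705 was not well above background in CDP and at least 16.8-fold higher in pre-cDC, where it read 0.93 and 0.88, while it was above 0.8 on every array outside CDP. Reverse strand chr4:35106125-35127700, likewise not well above background in CDP, was at -0.04 and 0.85 in pre-cDC, at least 11.9-fold higher. The forward strand of chr4:129497990-129515290 had 10 tested probes, and all rose in pre-cDC, by 0.78 to 3.02, with 1 of the 10 on no CDP array well above background.

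Several members that fell were high in GMP too. The forward strand of chr17:48068261-48087905 was at 7.40 and 7.28 in GMP and 8.21 and 8.14 in CDP. Lower levels followed in pre-cDC, at 5.02 and 5.09, CD8+ cDC, at 5.35 and 5.47, and neutrophils, at 2.84 and 2.85. It fell by 3.12 on the log2 scale from CDP to pre-cDC (SE 0.09, limma adjusted p = 1.2e-06). On chr19:56820850-56837925 a reverse probe had the same order, from 6.05 on both CDP arrays to 2.59 and 2.69 in pre-cDC and 0.07 and 0.02 in neutrophils. Reverse strand chr15:36800254-36809571 fell by 3.32 and the forward strand of chr13:3497296-3500441 by 3.09 on the log2 scale. On chr17:84397891-84412748 a forward probe was detected in GMP, the arrays labelled IRF8KO and CDP, between -0.01 and 0.86, and on no array of pre-cDC, CD8+ cDC or neutrophils. It was at least 10.2-fold lower in pre-cDC than in CDP. Reverse strand chr17:35080914-35090009 was at least 8.89-fold lower in pre-cDC, from 1.36 and 1.39 in GMP and 0.18 and 0.36 in CDP, and was also on no neutrophil array well above background. The 8 tested reverse probes of chr6:129151512-129208737 were all higher in CDP than in GMP, by 0.34 to 1.69, and all lower again in pre-cDC, with differences from -1.46 to -1.0. Neutrophils were far above every other group at all 8, at 3.44 to 6.71.

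**Figure D3:**
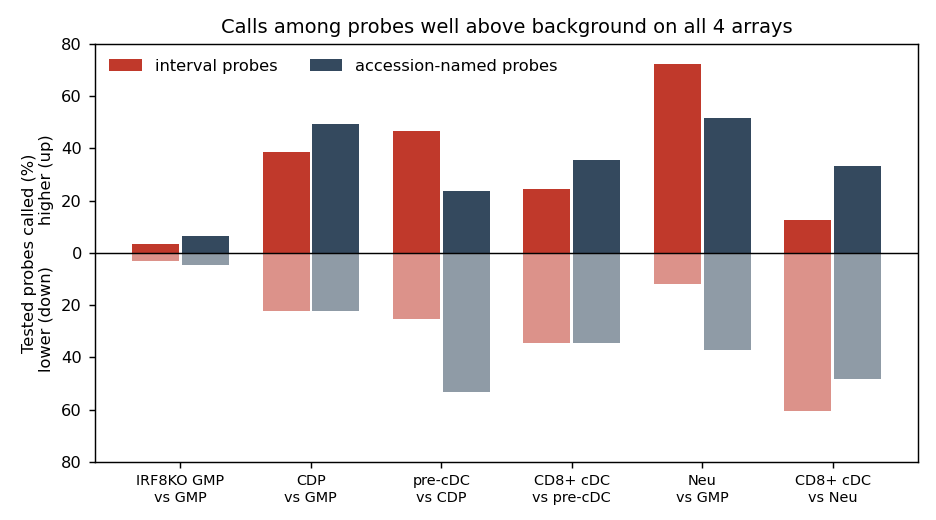
Percentage of probes called higher (up) or lower (down) in the first-named group of each comparison, at an adjusted p under 0.05, among probes well above background on all 4 arrays compared. Interval probes are red and accession-named probes dark blue. In neutrophils against GMP 72.5% of interval probes were higher and 12.1% lower, against 51.6% and 37.2% of accession-named probes. The higher and lower shares of CDP against GMP, pre-cDC against CDP and CD8+ cDC against pre-cDC move with the scaling.

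The genotype comparison in GMP had the fewest calls. Of 4378 interval probes tested, 167 were higher and 153 lower on the arrays labelled IRF8KO, 7.31% in all, where 11.6% of all 25442 probes tested were called, 6.61% higher and 4.94% lower. Among the 3577 well above background on all 4 arrays, 126 were higher and 115 lower, 6.74% in all. Of all such probes 10.7% were called, 6.11% higher and 4.55% lower. The count depends on how the spread is estimated: with only the 4 arrays of this slide in the fit 68 were called, 35 higher and 33 lower, while the same 4 arrays gave 968 when the spread model was fitted on tested probes alone, a setting added after seeing the data. The direction depends on single arrays. Higher calls outnumbered lower ones without the first IRF8KO array, and lower calls outnumbered higher ones without the first wild-type array. The same held over all probes tested. With all arrays the higher share of calls was 52.2%, and 41.3% when the percentile was taken over always-detected probes. Over all probes tested these shares were 57.2% and 48.7%.

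Of the 14 changes picked by size or strand in this comparison, 3 kept their call under every alternative in which they were traced (see the closing section). One was the chromosome 8 member above, chr8:82836971-82849309 on the reverse strand, higher on the arrays labelled IRF8KO by 1.99 (SE 0.17, limma adjusted p = 0.00038). Another was the reverse strand of chr1:182438908-182449858. It was well above background on no wild-type GMP array, read -0.91 and -1.45 on the arrays labelled IRF8KO, and was at least 6.18-fold higher there. It was also detected in pre-cDC and CD8+ cDC, between -2.18 and -1.78, and not in CDP or neutrophils. The last was a reverse probe of chr5:77084398-77086144, at -1.53 and -1.60 in wild-type GMP and on no other array well above background. It was at least 6.34-fold lower on the arrays labelled IRF8KO.

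The other members of this comparison lost their call under at least 1 alternative, as given here. A probe on the forward strand of chr9:35112668-35113346 was detected in wild-type GMP alone, at -0.98 and -0.11, and was at least 12.9-fold lower on the arrays labelled IRF8KO (limma adjusted p = 0.00064, and 0.073 with only the slide's 4 arrays). Beside these wild-type GMP members, all 3 basophil markers (Ms4a2, Fcer1a and Cpa3) were highest in wild-type GMP. Their summed log2 level was 5.46 to 5.48 there and 3.83 to 3.97 on the arrays labelled IRF8KO. Of the red cell genes, Car1 read 4.35 and 4.33 in wild-type GMP and -0.11 and -0.05 on the arrays labelled IRF8KO. Klf1 read 0.74 and 0.67 against -3.20 and -3.13, and Hba-a1 1.54 and 1.56 against -3.28 and -3.18. The part of these transcripts in the lower members was not tested.

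The chromosome 6 interval that peaks in neutrophils was higher on the arrays labelled IRF8KO. Another of its forward probes, measured on all 4 arrays, read -1.01 and -0.86 in wild-type GMP and 0.55 and 0.93 with the IRF8KO label, a difference of 1.68 (SE 0.20, limma adjusted p = 0.0020, and 0.055 with only the slide's 4 arrays). The neutrophil markers summed to 3.09 to 3.14 in wild-type GMP and 5.0 to 5.09 on the arrays labelled IRF8KO, and the part of neutrophil transcripts here was not tested. Forward probes of chr3:58118325-58136550 and chr8:60132300-60146830 were higher by 1.89 (SE 0.34, limma adjusted p = 0.012) and 1.73 (SE 0.33, limma adjusted p = 0.016). Both lost their call with only the slide's 4 arrays, without the second IRF8KO array and without the second wild-type array. The reverse strand of chr1:69531191-69570566 was at -0.20 and -0.34 in wild-type GMP and at -2.30 and -2.22 on the arrays labelled IRF8KO, and was detected in no other group. Its difference of -1.99 had an SE of 0.43 (limma adjusted p = 0.024), and the call was lost without any one of the 4 arrays and with quantile normalization.

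On the reverse strand of chr13:108653722-108654406 the level was -1.09 and -2.0 in wild-type GMP and -3.59 and -3.48 on the arrays labelled IRF8KO, so the groups did not overlap, and the call was lost with only the slide's 4 arrays (limma adjusted p = 0.11). The forward strand of chr13:52678544-52680308 fell by 1.42 on the log2 scale and lost its call with the slide's 4 arrays alone and without the first array of either genotype. At chr16:21794418-21809113 the forward probe read -1.38 and -1.28 in wild-type GMP and -2.84 and -2.62 with the IRF8KO label, and it lost its call without any one of the 4 arrays. At chr3:126989696-127112471 the forward probe read -0.82 and -2.65 on the arrays labelled IRF8KO and was on no wild-type GMP array well above background. Its at-least fold was 3.96, and its call was lost under 7 alternatives, among them array medians (limma adjusted p = 0.063) and the fit without the first IRF8KO array (limma adjusted p = 0.074).

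Of 1036 interval strands with 2 or more tested probes, 9 had all of them called higher and 15 all called lower on the arrays labelled IRF8KO. The 2 picked for the most probes, outside chromosome 18, are given here. All 5 tested reverse probes of chr16:90008636-90015586 were lower on the arrays labelled IRF8KO, by 0.75 to 0.94 on the log2 scale. All 5 of chr3:21964899-21974524 on the reverse strand were higher, by 0.49 to 0.68. Fewer were called with 1 array left out, 2 or 3 of the 5 on chromosome 16 and 2 to 4 of the 5 on chromosome 3, and with only the slide's 4 arrays none was.

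Members called in the genotype comparison were set beside comparisons that share no array with it. Of the 167 higher on the arrays labelled IRF8KO, 151 were also tested between CD8+ cDC and neutrophils. Of these, 99 (65.6%) were higher in neutrophils and 39 (25.8%) higher in CD8+ cDC. Of the 120 lower members tested there, 57 (47.5%) were higher in neutrophils and 39 (32.5%) in CD8+ cDC. Over all 3922 interval probes tested in both comparisons, 51.5% were higher in neutrophils and 22% in CD8+ cDC. The 99 make up 3.57% of all interval probes higher in neutrophils. Between CD8+ cDC and pre-cDC, 70 of 139 (50.4%) of the higher members were lower and 34 (24.5%) higher in CD8+ cDC, and the 70 were 5.46% of all lower calls there. Of the lower members 42 of 125 (33.6%) were lower and 49 (39.2%) higher, where 28.5% and 28.1% of those tested in both were. Between pre-cDC and CDP both kinds of member were close to each other: 46.9% of the higher and 49.1% of the lower members were higher in pre-cDC and 31.2% of each were lower, against 49.4% and 25.6% of those tested in both.

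The same was done for neutrophils against GMP, beside pre-cDC against CDP. Of the 3376 interval probes higher in neutrophils, 2283 were tested in both, and 1311 of them (57.4%) were higher and 436 (19.1%) lower in pre-cDC. Of the 989 lower in neutrophils, 736 were tested in both, and 202 (27.4%) were higher and 350 (47.6%) lower in pre-cDC. Over all 3477 tested in both, 49.6% were higher and 25.5% lower. The 1311 were 71.1% of all 1844 interval probes higher in pre-cDC, of which 1726 were tested in both. The 350 were 37.8% of all 927 that were lower, of which 887 were tested in both. These shares stand beside 2283 of the 3477 tested in both that were higher in neutrophils and 736 that were lower. Overlaps here and for the genotypes were taken over interval probes alone, not over all probes. Neutrophil markers are present in pre-cDC, as given above.

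The 1042 intervals probed on both strands allow the strands to be set beside each other as detected or not. In each group most of them had a detected probe on at least 1 strand, from 677 in CDP to 891 in CD8+ cDC. Among those, the share detected on 1 strand alone was largest in CDP, at 65.3%, followed by GMP at 61.4%, pre-cDC at 58.2%, the arrays labelled IRF8KO at 54.1%, neutrophils at 51.5% and CD8+ cDC at 46.7%. CDP also had the fewest interval probes detected, 2932, and CD8+ cDC the most, 4910. The part of this in the order of the shares was not tested. Forward and reverse were about even, for example 210 forward only and 206 reverse only in CD8+ cDC. Over any of the 6 groups, 557 intervals were detected on both strands, 379 on 1 and 106 on neither.

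**Figure D4:**
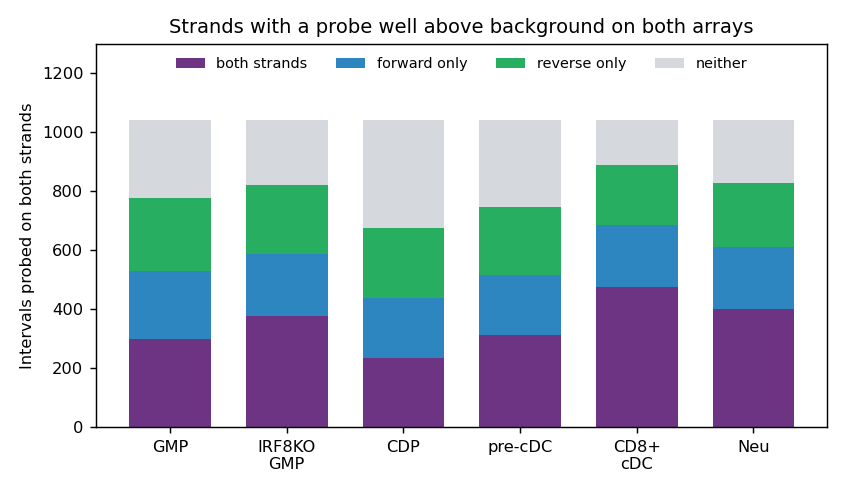
Number of the 1042 intervals probed on both strands that had a probe well above background on both arrays of a group, by strand and group. CD8+ cDC had the most with both strands (475) and CDP the fewest (235).

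Where both strands were called, they moved in the same direction at some intervals and in opposite directions at others. Directions were opposite for 118 of 206 intervals from GMP to CDP, 137 of 258 from CDP to pre-cDC and 148 of 233 from pre-cDC to CD8+ cDC. In neutrophils against GMP it was 112 of 398, between CD8+ cDC and neutrophils 116 of 335, and between the GMP genotypes 1 of 5. These counts include intervals whose strand was below background in one group.

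One such interval was chr16:23992037-24001037, 9 kb long. Its forward probe was well above background in neutrophils alone, at -0.83 and -1.26. Its reverse probe was well above background in CD8+ cDC, at -0.12 and 0.13, and in pre-cDC, at -2.76 and -2.46, and nowhere else. The forward strand differed by -4.91 (SE 0.27, limma adjusted p = 1e-06) and the reverse strand by 5.12 (SE 0.22, limma adjusted p = 2e-07) between CD8+ cDC and neutrophils. At chr2:158169020-158191295 the forward probe was higher in neutrophils, at -0.62 on both arrays, than in CD8+ cDC, where it was not well above background. It was also detected in pre-cDC, at -1.95 and -1.48, and on both arrays labelled IRF8KO. Its reverse probe was detected in every group except neutrophils, from 1.28 to 2.54.

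Opposite strands also crossed along the dendritic path. At chr9:51905865-51911474 the forward probe rose by 2.58 from GMP to CDP and the reverse probe fell by 2.10 on the log2 scale. The reverse probe then rose by 3.6 from CDP to pre-cDC, to 0.79 and 1.04. At chr6:67155508-67216941 the forward probe fell by 2.89 on the log2 scale from pre-cDC to CD8+ cDC while the reverse probe rose by 2.86, to 0.03 and -0.06. At chr12:81217572-81233910 the forward probe fell by 2.61 and the reverse probe rose by 2.92 in the same step.

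In neutrophils against GMP, the forward probe of chr14:115423660-115463160, on no GMP array well above background, was at -1.72 and -2.27 in neutrophils, and the reverse probe was lower, at 1.32 and 1.28 in GMP against -2.49 and -2.42. The interval chr8:119732348-119749198 had the reverse order, with the forward probe lower by 3.93 on the log2 scale and the reverse probe higher by 3.52. At chr6:52046805-52072744 the forward probe fell by 2.17 from CDP to pre-cDC, and the reverse probe, on no CDP array well above background, was at -2.03 and -1.88 in pre-cDC, a call lost under normexp (limma adjusted p = 0.21). The interval chr1:153685487-153710962 is an unsure case: its forward probe was on no CDP array and its reverse probe on no GMP or pre-cDC array well above background, and under normexp the forward difference between CDP and GMP turned from -2.24 to 0.61. The only such interval between the GMP genotypes, chr5:35975265-35982561, differed by -0.66 on the forward and 0.51 on the reverse strand (limma adjusted p = 0.021 and 0.022), and both calls were lost with array medians and with only the slide's 4 arrays.

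Probes of one interval strand agreed more with each other than probes on opposite strands of one interval did. As a description, the Pearson correlation over the 6 group means had a median of 0.82 for 6606 pairs on one interval and strand, and 0.55 for 4485 pairs on opposite strands of one interval. For neighbouring intervals 1 value was taken per pair of intervals, the mean correlation over all their probe pairs. The median of these means was 0.49 under 50 kb apart, 0.39 from 50 kb to 500 kb and 0.32 beyond. The points of each pair share their arrays and scaling, and a pair of intervals may overlap another. Among probes detected on all 12 arrays the medians were 0.89, 0.58, 0.59, 0.53 and 0.44. Because the values of neighbouring intervals are means, they cannot be set like for like against those of single pairs within an interval.

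**Figure D5:**
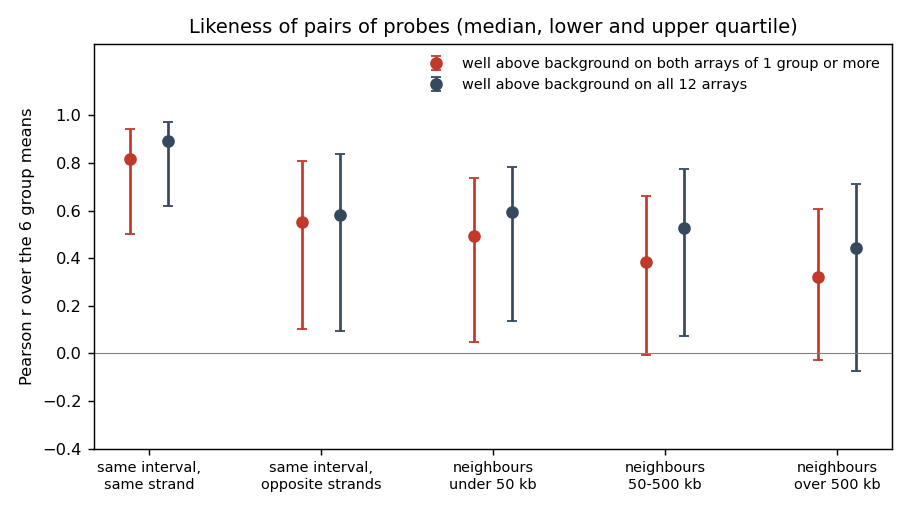
Median Pearson correlation over the 6 group means for pairs of interval probes, with lines from the lower to the upper quartile. For neighbours each value is a mean over the probe pairs of 1 pair of intervals, so it is not like for like with the others. Red points are probes detected in at least 1 group and dark points those detected on all 12 arrays. Pairs on one interval and strand lie highest, at 0.82 and 0.89, and their quartiles overlap those of the other pairs.

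Agreement within an interval strand was far from complete. Of the 3772 interval strands with 2 or more probes, all probes were detected in 14.5% (pre-cDC) to 18.9% (arrays labelled IRF8KO) of those with any detected. In neutrophils against GMP, 606 of 1196 interval strands with 2 or more tested probes had all of them higher, 153 had all lower, and 140 (11.7%) had probes called in both directions. The shares called in both directions were 17% from GMP to CDP, 18.2% from CDP to pre-cDC, 9.95% from there to CD8+ cDC and 11% between the mature cells. In the genotype comparison 9 of 1036 interval strands had all probes higher, 15 all lower and 2 both.

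A few members were steady. The 5 with the smallest range of group means among those detected on all 12 arrays, outside chromosome 18, are given as a description. A reverse probe of chr4:33364774-33364898, an interval of 0.125 kb, read between 5.33 and 5.90 on all 12 arrays. One forward probe of chr14:67587065-67588705 read between 3.55 and 4.23, whereas the other probe of that strand named above was lost in CDP. The reverse strand of chr8:119090566-119097735 and the forward strands of chr7:66562376-66579519 and chr15:100908323-100908645 completed the set, the last at -0.33 to 0.34.

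At the other end stood the 5 with the largest range, chosen in the same way. On chr9:66981366-67061725 a forward probe was at 5.70 and 5.79 in neutrophils and -0.93 and -0.96 in CDP. Forward strand chr1:193815525-193825775 had the opposite order, at 6.03 and 6.00 in CDP and -0.11 and -0.26 in neutrophils. The reverse probe of chr10:83980790-83986015, the forward probe of chr19:53517903-53540753 and the 12-array reverse probe of chr8:82836971-82849309, described above, were the others.

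Most members picked as detected in pre-cDC, in CDP or on the arrays labelled IRF8KO alone were dim. In pre-cDC the reverse strand of chr5:22801058-22939737 was at -2.16 and -1.93, and the forward strand of chr12:56607657-56613582 at -2.16 and 1.07, so its replicates lay far apart. They were at least 1.93-fold and 5.39-fold over every other group. In CDP the reverse strand of chr15:102994998-102995947 was at -2.03 and -3.1 and the forward strand of chr12:3406750-3425850 at -2.58 and -2.84, at least 1.24-fold and 1.07-fold over every other group. On the arrays labelled IRF8KO the forward strand of chr5:149751979-149808240 was at -2.07 and -1.74 and the reverse strand of chr3:146014132-146014545 at -2.32 and -2.31, at least 1.97-fold and 1.48-fold over every other group. Under normexp neither of these last members was highest on the arrays labelled IRF8KO.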

How the data were processed

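Per the labels' protocols, Cy3-labelled RNA of sorted cells was read on Agilent arrays in 1 colour. Scanner output came from Agilent Feature Extraction 10.7.3.1, per the file headers, and its deposited spot intensity values are linear. Members and lists were chosen with earlier results of these data known. Of 14 arrays, 12 were used: the CD4+ cDC arrays are of a smaller design with 0 interval probes, and the authors' deposited value table holds 0 of them. Spots flagged as outliers were treated as missing on that array, and no probe was imputed.

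Intensity was scaled to each array's 75th percentile on the log2 scale. A limma 3.58.1 model (R 4.3.3, lmFit and eBayes, two-sided) was fitted to all probes of the 12 arrays in 6 groups, with 7.48 degrees of freedom in total. A probe of any kind was tested where, in 1 or both groups compared, its spots on both arrays were well above background, and p-values were adjusted over all of them (Benjamini-Hochberg, threshold 0.05). The number of arrays limits the precision. The fit was checked on simulated data. The labels do not say whether a replicate number pairs samples, so the main fit has no pairing (see the closing section). Alternatives were 3 other scalings, normexp (offset 50), 2 filters, an intensity trend, a replicate block, 1 probe per interval and strand, each array left out, the slide's 4 arrays alone and, added after seeing the data, a spread model on tested probes alone. Normexp used the median spot signal, since the mean signal is not among the columns used.

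Members named in the text are, per comparison, the 4 largest changes each way among called members well above background on all 4 arrays, the 2 largest at-least folds each way, the 2 interval strands with most probes all called one way, and up to 2 intervals with strands called oppositely. Added to these are 2 members detected in each group alone and the 5 largest and 5 smallest ranges of group means. Of these, some are given by count only, and 571 probes on chromosome 18 are counted but not named. One marker gene is not reported here.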

Additional observations from a re-analysis of the deposited data

How the results depend on the processing

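The 6 comparisons were rerun with 1 choice changed at a time. Between the GMP genotypes 320 interval probes were called as reported. The count was 187 with 1 probe per interval and strand, 145 with array medians and 509 with an intensity trend. It was 764 with normexp and 68 with the slide's 4 arrays alone. These counts were 8.57%, 3.31%, 11.6%, 17.5% and 1.55% of the interval probes tested. Over all probes tested the shares were 14.4%, 5.84%, 23.4%, 24.0% and 3.64%. Settings added after seeing the data, with the spread model on tested probes alone, gave 536 over 12 arrays and 968 over 4. These were 12.2% and 22.1% of the interval probes tested, against 20.3% and 28.6% of all probes tested. The cause of these differences was not tested. With 1 probe per interval and strand, which leaves fewer probes, the other counts were 1291 (CDP against GMP), 1513 (pre-cDC against CDP), 1369 (CD8+ cDC against pre-cDC), 2126 (neutrophils against GMP) and 1854 (CD8+ cDC against neutrophils). In that order they were 64.3%, 77.7%, 54.5%, 88.4% and 71.6% of the interval probes tested. Over all probes tested the shares were 72.6%, 78.5%, 67.1%, 90.1% and 80.7%. Keeping only probes well above background on all arrays compared also left fewer. The counts were then 1603 for CDP against GMP, 1799 for pre-cDC against CDP and 2416 for neutrophils against GMP. These were 61.1%, 72.1% and 84.6% of the interval probes tested, against 70.2%, 76.4% and 88.2% of all probes tested. The F test gave 2035, or 98.4% of the interval probes tested. With no filter the counts were 8284 for CD8+ cDC against pre-cDC, 7281 for neutrophils against GMP and 8954 for CD8+ cDC against neutrophils. These were 53.0%, 46.6% and 57.3% of the interval probes tested, against 59.5%, 56.9% and 65.8% of all probes tested. The F test gave 11752 with no filter, or 75.3% of the interval probes tested. For the F test the share over all probes was taken in the main fit alone.

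Leaving out 1 array at a time gave 199 to 325 calls between the GMP genotypes, 2294 to 2460 for CDP against GMP, 2570 to 2845 for pre-cDC against CDP, 2268 to 2650 for CD8+ cDC against pre-cDC, 4253 to 4661 for neutrophils against GMP, 3271 to 3795 for CD8+ cDC against neutrophils and 5469 to 5919 for the F test. The lone array of a group is then assumed to vary like the others. The number of probes tested changed too. In every such fit of each comparison, a smaller share of interval probes than of all probes tested was called. The lowest genotype count, 199, was without the first wild-type GMP array.

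With the replicate number as a block, the genotype count was 217 (109 higher, 108 lower). The counts of the other comparisons were 2476, 2702, 2652, 4333 and 3795 in the order above, and 5503 for the F test. With the genotypes first, 4.96%, 62.1%, 73.3%, 52.2%, 86.3% and 69.5% of the interval probes tested were called. Over all probes tested it was 8.65%, 69.1%, 75.6%, 62.8%, 88.7% and 77.9%. Deviations of same-numbered samples correlated between -0.06 and 0.03, so no shared deviation was seen. With 2 samples a group this cannot tell whether same-numbered samples share a mouse or a day.

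Of 94 single-probe changes named by size or strand, 78 kept their direction and call under every alternative in which they were traced. Of the 16 that did not, 11 were in the genotype comparison. Named changes were not traced with 1 probe per interval and strand, with the spread model on tested probes alone, or where a filter left them untested. The change of the forward probe of chr1:153685487-153710962 from GMP to CDP turned to 0.61 under normexp. Under normexp too, the lead of the arrays labelled IRF8KO over the next group turned to -0.36 at chr5:149751979-149808240 and to -0.36 at chr3:146014132-146014545, and, when the percentile was taken over always-detected probes, that of CDP at chr12:3406750-3425850 turned to -0.018. Median correlations of neighbouring intervals moved to 0.59, 0.53 and 0.44 among probes detected on all 12 arrays. Requiring all spots of a probe changed no detection share, because members have 1 spot each. The authors' deposited value table holds none of these probes, so that alternative gave no value. Signal over background limits what can be measured: the lowest level marked well above background was highest on the second pre-cDC array, at -2.81, and lowest on the second IRF8KO array, at -4.59.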
